A study of Mus musculus with 2 samples.

Results

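Axon guidance ligands and their receptors were examined as 67 genes, taken by symbol from the 17592 gene columns of a single-cell table of the mouse dentate gyrus. The 34 ligands were the semaphorins of classes 3 to 7, the ephrins, the Slits and the netrins. The 33 receptors were the plexins, neuropilins, Eph receptors, Robo receptors and Unc5 receptors. The rule that picks them reads symbols and no expression value.

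Cells came from the microdissected dentate gyrus of C57BL/6 mice, in a library labelled old (16 months) and a library labelled young (3 months), 1 each, with no treatment or modified allele named. Tissue was dissociated with papain, and live cells that excluded propidium iodide were sorted and profiled with 10x Genomics 3' chemistry. That chemistry tags each captured transcript near its 3' end with a unique molecular identifier (UMI), so a level does not grow with transcript length. The number of mice behind a library is not given in the sources used here.

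Guidance cues are secreted or membrane-bound proteins that attract or repel growing axons and migrating cells. Semaphorins act through plexins, and most secreted class 3 semaphorins need a neuropilin as co-receptor. Ephrins on one cell bind Eph receptor tyrosine kinases on the next, and both sides can signal. Slits act through Robo receptors, and netrins through Dcc and the Unc5 receptors. In the adult brain the same proteins serve in vessels, glia and synapses, and in the dentate gyrus they have known parts in the placement and wiring of new granule neurons.

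The libraries shared cells. Of the 1430 cell barcodes of the old library, 1401 were also in the young library, which held 2463 cells. Old cells carried 7451506 UMIs in all and young cells 16217559. Among brain-class cells, defined below, 1113 barcodes occurred in both libraries, of 1141 old and 1148 young cells, and 100% of them fell in the same class. For a barcode in both, the old count of UMIs was a median of 1.12 times the young one. No age can therefore be compared through these cells, and old and young values below are 2 tables of largely the same cells. With 1 library per age nothing was tested, and every interval is a 95% interval for counting error alone.

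Cells were clustered without the 67 genes and named from standard markers. At least 8 markers were found in each named cluster of a class with 40 or more cells, from 8 of 12 in a small astrocyte-like cluster to 12 of 12 in the microglia-like one. The 7 classes compared, in cells of the old and then the young library, were microglia-like (382 and 387), astrocyte-like (311 and 304), endothelial-like (129 and 129), mature oligodendrocyte-like (81 and 82), pericyte-like (68 and 70), neuroblast-like (56 and 58) and oligodendrocyte precursor-like (40 and 45). Median depth per young cell ran from 1912 UMIs in astrocyte-like cells to 9500.5 in mature oligodendrocyte-like cells. No cluster was named mature neuron, so the granule neurons that make up most of the tissue are not described. A further 289 old and 1315 young cells had almost no mitochondrial UMIs and were kept out of the brain classes.

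Values of the old library are given beside those of the young library, on which the calls rest. A gene was counted when the brain-class cells of the young library held at least 20 of its UMIs, which 47 of the 67 genes did (23 ligands and 24 receptors). It was called raised in a class when its summed UMIs per 10,000 were at least 4 times those of all other brain-class cells, with at least 10 UMIs in the class. Of the 47 genes, 38 were raised in at least 1 class (80.9%), 18 ligands and 20 receptors, against 36.6% of all 12336 genes counted in the same way. A gene with few UMIs in all passes the minimum largely through the class in which it is high, so the share describes the counted genes and not all 67. The calls came to 45, since 7 genes were raised in 2 classes, and 42 of the 45 were also made in the old library, which had 45 calls in all. No gene was raised in more than 2 classes.

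**Figure D1:**
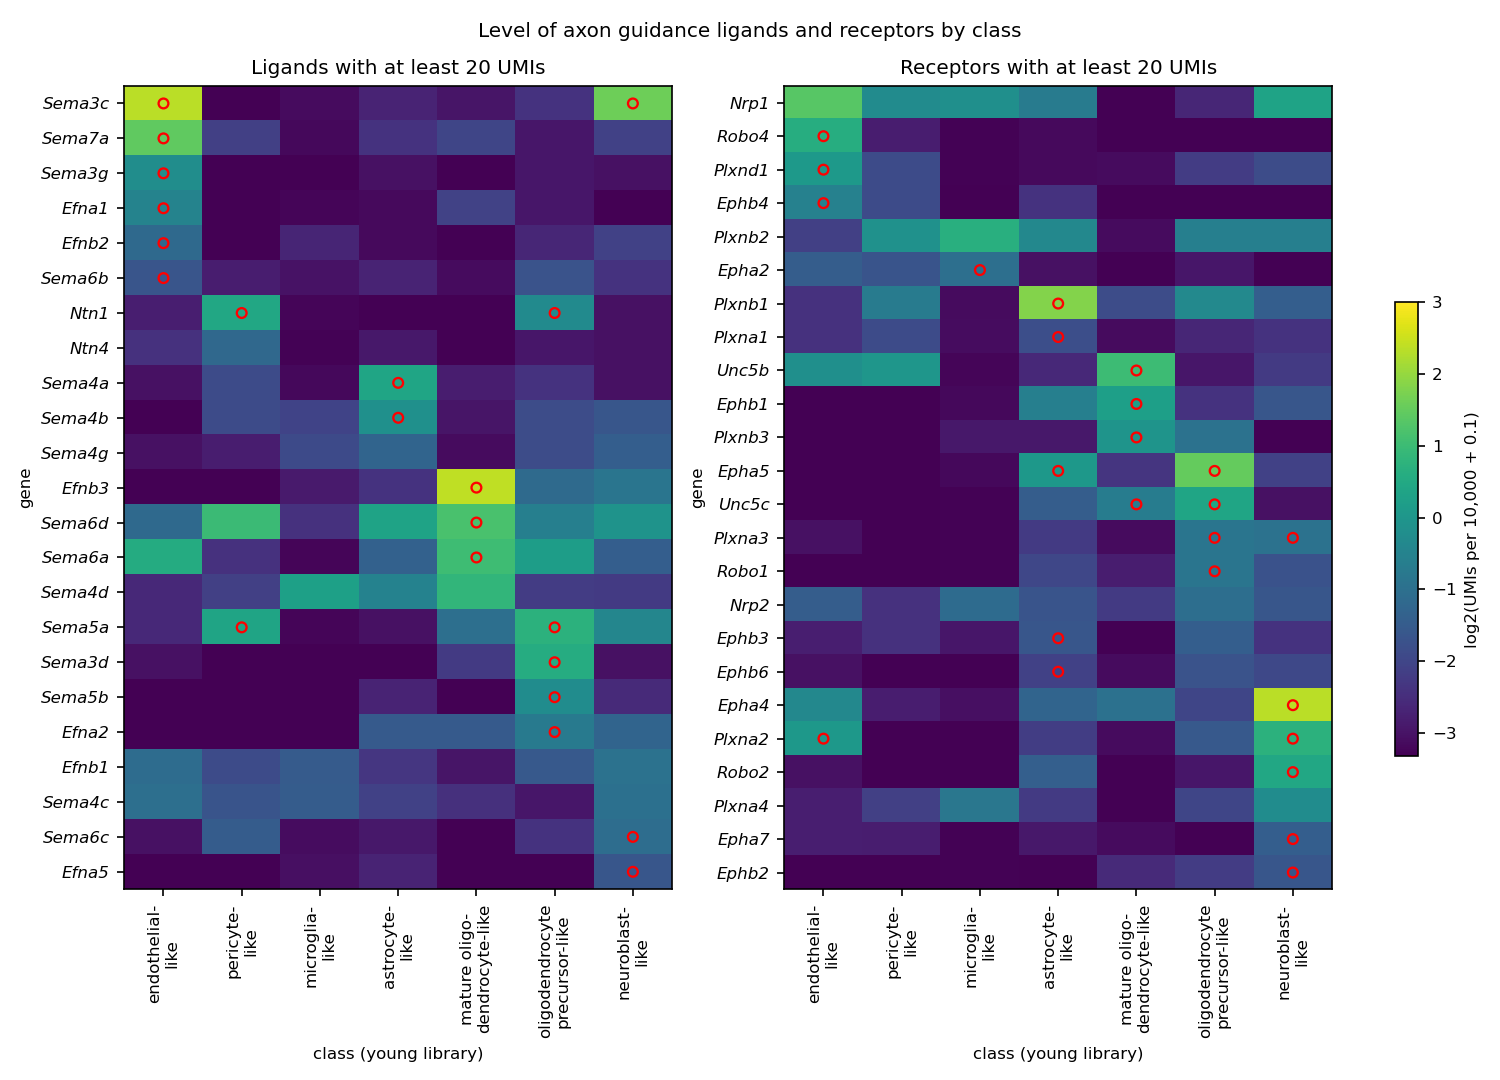
Level of the 23 counted ligands (left) and 24 counted receptors (right) in 7 classes of the young library, as log2 of UMIs per 10,000 plus 0.1, with red circles on the 45 calls of a gene at least 4 times higher than in all other brain-class cells. Genes are ordered by the class in which they were highest, and 9 genes carry no circle.

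Promoter sequences are shown for 4 genes that led a class, as the stretch in which transcription of each leading gene starts. For each class, the raised gene with the most UMIs and a single listed start was taken, and the 4 with the highest levels are printed. Each is RefSeq's 300 bases on GRCm38.p6, from 250 before to 50 after the start, read 5′ to 3′ along the gene, with matches to a GC box (GGGCGG) or an ETS core (CCGGAA) on either strand in capitals. Epha4 (neuroblast-like) lay at chr1:77515039-77515338 on the minus strand. Sema3c (endothelial-like) lay at chr5:17574566-17574865 on the plus strand. Plxnb1 (astrocyte-like) lay at chr9:109095186-109095485 on the plus strand, and Epha5 (oligodendrocyte precursor-like) at chr5:84417333-84417632 on the minus strand.
Epha4: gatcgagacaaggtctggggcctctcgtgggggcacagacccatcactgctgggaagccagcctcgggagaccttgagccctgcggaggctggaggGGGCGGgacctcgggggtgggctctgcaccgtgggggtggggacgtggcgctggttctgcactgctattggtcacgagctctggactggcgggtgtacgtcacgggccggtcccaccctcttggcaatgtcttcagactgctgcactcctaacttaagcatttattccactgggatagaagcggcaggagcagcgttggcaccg
Sema3c: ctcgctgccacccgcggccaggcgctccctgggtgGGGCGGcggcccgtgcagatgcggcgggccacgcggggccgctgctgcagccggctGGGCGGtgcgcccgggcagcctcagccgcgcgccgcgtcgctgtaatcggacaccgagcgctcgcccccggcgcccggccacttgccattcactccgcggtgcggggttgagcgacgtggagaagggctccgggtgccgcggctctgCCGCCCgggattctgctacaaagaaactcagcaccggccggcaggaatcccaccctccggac
Plxnb1: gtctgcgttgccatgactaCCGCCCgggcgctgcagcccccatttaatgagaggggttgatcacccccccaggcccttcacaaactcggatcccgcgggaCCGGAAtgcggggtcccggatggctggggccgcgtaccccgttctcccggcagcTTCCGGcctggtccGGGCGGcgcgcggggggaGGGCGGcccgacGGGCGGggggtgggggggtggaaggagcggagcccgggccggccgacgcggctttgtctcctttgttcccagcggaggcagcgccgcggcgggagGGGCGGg
Epha5: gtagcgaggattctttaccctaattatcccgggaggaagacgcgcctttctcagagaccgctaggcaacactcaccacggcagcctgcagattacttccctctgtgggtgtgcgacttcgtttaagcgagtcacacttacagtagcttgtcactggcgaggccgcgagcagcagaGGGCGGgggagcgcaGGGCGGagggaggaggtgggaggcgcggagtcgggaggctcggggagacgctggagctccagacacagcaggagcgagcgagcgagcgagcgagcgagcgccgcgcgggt

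GC boxes were found in all 4 of these windows, 1 in Epha4, 3 in Sema3c, 5 in Plxnb1 and 2 in Epha5, and ETS cores in Plxnb1 alone, where there were 2. Over the 74 listed starts of the 58 genes with a promoter entry, 70.3% held a GC box, against 35.7% of all 32851 promoters of that length. The median GC content was 64.2% in the guidance gene promoters and 52.7% in all promoters. A TATAAA box occurred in 2.70% against 13.6%, an ETS core in 9.46% against 14.9%, a SOX match (ACAATG) in 10.8% against 12.6% and an E box (CAGCTG) in 16.2% against 16.3%. These are letter matches in a window and not sites of binding.

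Endothelial-like cells had 10 raised genes of the 47 counted (21.3%, against 5.56% of all genes), of which 6 were ligands. The receptor Robo4, a Robo family member of blood vessels, stood at 1.41 UMIs per 10,000 in old and 1.44 (1.11 to 1.83) in young endothelial-like cells. In the young library it had 66 UMIs in that class against 3 in all other brain-class cells, a fold of 288 (94.2 to 1430), and its gene lies at chr9:37401897-37415115 on GRCm38. Sema3g, a secreted semaphorin of vessels, had 35 UMIs against 4, a fold of 114 (40.9 to 443). Both genes were thus close to absent outside the endothelial-like class.

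Sema7a, a membrane-anchored semaphorin that binds integrins and plexin C1, reached 2.41 UMIs per 10,000 in old and 2.66 (2.21 to 3.18) in young endothelial-like cells, 49.8-fold above other young cells. Sema3c, a secreted semaphorin that binds neuropilins, was the highest guidance gene of the class, at 4.82 in old and 4.99 (4.37 to 5.68) in young cells. It was found in 66.7% of young endothelial-like cells (57.8 to 74.7), against 4.51% of other brain-class cells. Its fold of 20.6 (16.7 to 25.6) is measured against a pool that holds the neuroblast-like cells, in which Sema3c was raised as well.

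Both partners of the arterial and venous ephrin pair were raised in endothelial-like cells. Ephb4, the venous receptor, was 27.2-fold higher (13.5 to 57.3), and Efnb2, its arterial ligand, 7.75-fold (3.90 to 14.9). Efnb2 had 16 UMIs in 14 of the 129 young cells and Ephb4 had 27 UMIs in 25 cells, and 1 cell had both. Efna1, an ephrin-A known from angiogenic vessels, was 26.1-fold higher (13.3 to 53.7). The plexins Plxnd1, a receptor in vessel patterning, and Plxna2, which binds semaphorins of classes 3 and 6, were 23.0-fold (13.8 to 39.2) and 6.18-fold (4.20 to 8.97) higher. Sema6b, a membrane semaphorin, rested on 10 UMIs and had a fold of 5.03 whose interval, 2.16 to 10.8, went below 4. Its level was 0.218 in young endothelial-like cells and 0.209 in young oligodendrocyte precursor-like cells, which had fewer than the 10 UMIs that a call needs.

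Pericyte-like cells had 2 raised genes (4.26% of those counted, against 4.10% of all genes), a share near the background. Ntn1, or netrin 1, the classic attractant of commissural axons, stood at 1.28 UMIs per 10,000 in both the old and the young pericyte-like cells, with a fold of 26.6 (15.5 to 45.8). Sema5a, a membrane semaphorin that binds plexin B3, was 6.07-fold higher (3.87 to 9.20). Both ligands were raised in oligodendrocyte precursor-like cells too. Ntn4, a basement membrane netrin, was counted but raised in no class of 40 or more cells. Of its 78 UMIs in young brain-class cells, 60 lay in 14 smooth muscle-like cells, where its level was 6.10 in the old and 6.46 (4.93 to 8.32) in the young library. All 14 of those young cells had a Ntn4 UMI, against 5 of 70 pericyte-like cells. In the old library Ntn4 passed the call in pericyte-like cells, at 4.17-fold with 12 UMIs, where the young library had 3.05-fold with 8.

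**Figure D2:**
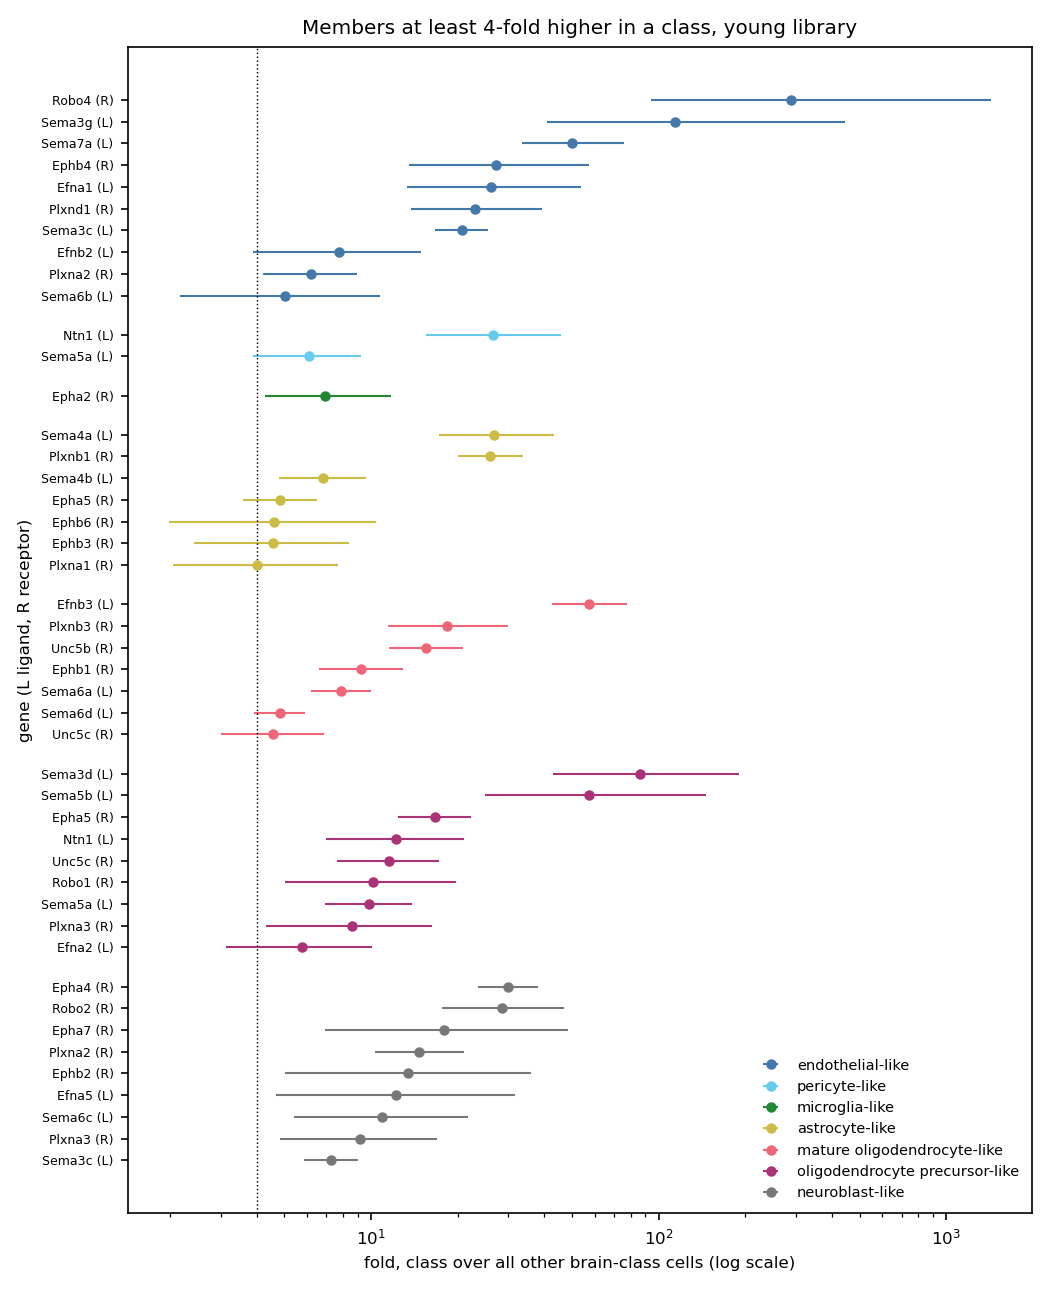
Fold of each raised gene, its class over all other brain-class cells of the young library, on a log scale, with 95% exact intervals for counting error and a dotted line at 4. Robo4 stands at 288, Sema3g at 114 and Sema3d at 85.8, and Plxna1 at 4.01 is the nearest to the line.

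Microglia-like cells, the largest class, had 1 raised gene of the 47 (2.13%, against 6.31% of all genes). This was Epha2, an ephrin-A receptor, at 0.386 UMIs per 10,000 in old and 0.400 (0.331 to 0.478) in young microglia-like cells, a fold of 6.90 (4.28 to 11.7). It was found in 23.0% of the young cells, against 2.50% of the other brain-class cells. These shares are not at equal depth, since a young microglia-like cell held a median of 7819 UMIs and an astrocyte-like one 1912. By level, young endothelial-like cells came next for Epha2, at 0.262. The genes that made up most of the class's guidance RNA were shared with other classes. Plxnb2, the receptor of class 4 semaphorins, stood at 1.39 in old and 1.48 (1.34 to 1.62) in young microglia-like cells, a fold of 3.09. Sema4d, a semaphorin first known from lymphocytes, stood at 1.14 and 1.11 (0.993 to 1.23) in old and young cells of that class. It was higher in mature oligodendrocyte-like cells, at 1.60 in the old and 1.69 (1.40 to 2.01) in the young library. Plxna4, a co-receptor partner of neuropilins, was at 0.510 in old and 0.466 in young microglia-like cells, and at 1.05 and 0.739 (0.509 to 1.04) in neuroblast-like ones.

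Astrocyte-like cells had 7 raised genes (14.9% of those counted, against 8.89% of all genes), 2 ligands and 5 receptors. Plxnb1, a receptor of Sema4d, stood at 3.45 UMIs per 10,000 in both the old and the young (3.08 to 3.85) astrocyte-like cells. The fold of Plxnb1 was 25.9 (20.02 to 33.8), and 159 of 304 young cells had a UMI although a cell held a median of only 1912 UMIs. Sema4a, a class 4 semaphorin that binds B-type plexins, was at 1.05 in old and 1.20 (0.989 to 1.45) in young cells, 26.8-fold higher (17.2 to 43.1). Sema4b, a member of the same class, was 6.79-fold higher (4.80 to 9.61).

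The remaining 4 astrocyte calls were smaller. Epha5, an ephrin-A receptor of neurons and glia, was 4.83-fold higher (3.59 to 6.48), Ephb6, a kinase-inactive Eph receptor, 4.60-fold (1.99 to 10.4) and Ephb3, an ephrin-B receptor, 4.54-fold (2.42 to 8.41). Plxna1, a plexin for classes 3, 5 and 6, was 4.01-fold higher (2.04 to 7.68), and its 3.43-fold in the old library missed the call. Its level was 0.188 in young astrocyte-like cells and 0.171 in young pericyte-like ones. Each of these 4 intervals goes below 4. Ephb3 and Ephb6 were higher in young oligodendrocyte precursor-like cells, at 0.269 and 0.209, than in astrocyte-like ones, at 0.221 and 0.133. Ephb6 was also higher in young neuroblast-like cells, at 0.157. In those other classes both genes had fewer than the 10 UMIs that a call needs. All 109 Sema4a UMIs and all 73 Sema4b UMIs of the young class were in the larger astrocyte-like cluster, of 282 cells. The smaller one, of 22 cells, had 0 UMIs of either, which allows a level of up to 0.502 per 10,000 (3 counts).

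Mature oligodendrocyte-like cells had 7 raised genes (14.9%, against 4.95% of all genes), 3 ligands and 4 receptors. Efnb3, a membrane ephrin known as a midline barrier to axons, stood at 5.26 UMIs per 10,000 in the old and 5.18 (4.67 to 5.73) in the young library, a level whose interval overlaps those of Epha4 in neuroblast-like and Sema3c in endothelial-like cells. Its fold was 57.0 (42.6 to 77.8), it was found in 77 of 82 young cells, against 4.03% of other brain-class cells, and the gene lies at chr11:69554092-69560205 on the minus strand of GRCm38. The class 6 semaphorins Sema6d and Sema6a, membrane ligands of A-type plexins, were 4.82-fold (3.93 to 5.89) and 7.85-fold (6.18 to 9.97) higher. Neither was restricted to the class. Sema6d also reached 1.88 in young pericyte-like cells, and Sema6a 1.37 in young endothelial-like cells.

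The raised receptors of mature oligodendrocyte-like cells came from 3 families. Plxnb3, the receptor of Sema5a, was 18.3-fold higher (11.5 to 29.9). Unc5b, a netrin receptor, stood at 1.81 in the old and 1.92 (1.61 to 2.26) in the young library, 15.5-fold higher (11.5 to 20.9). Ephb1, an ephrin-B receptor, was 9.23-fold higher (6.60 to 12.95), and the netrin receptor Unc5c 4.57-fold (3.00 to 6.88). Sema5a had 29 UMIs in this class in the young library, but in only 3 cells.

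Oligodendrocyte precursor-like cells had 9 raised genes (19.1%, against 6.20% of all genes), 5 ligands and 4 receptors, in 45 young cells. Sema3d, a secreted semaphorin, had 47 UMIs there and 10 in all other brain-class cells, a fold of 85.8 (42.8 to 191). Sema5b, the close relative of Sema5a, had 25 against 8, a fold of 57.1 (24.96 to 146). Both were far lower in mature oligodendrocyte-like cells, with 8 UMIs of Sema3d and 0 of Sema5b in 82 cells, where a count of 0 allows up to 0.0411 per 10,000. Sema5a itself stood at 1.80 in the old and 1.58 (1.18 to 2.07) in the young library, 9.88-fold higher (6.93 to 13.9).

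Netrin and its receptor Unc5c were raised in the same precursor-like cells. Ntn1 was 12.2-fold higher (6.95 to 20.98) and Unc5c 11.5-fold (7.60 to 17.3), and 11 of the 45 young cells had a UMI of both. Epha5 was the highest receptor, at 2.67 in the old and 2.75 (2.21 to 3.37) in the young library, 16.6-fold higher (12.4 to 22.3), and 73.3% of young cells had it. Robo1, a Slit receptor, was 10.1-fold higher (5.02 to 19.8), Plxna3, a neuropilin partner, 8.56-fold (4.31 to 16.3) and Efna2, an ephrin-A, 5.75-fold (3.12 to 10.1). In the old library Ephb6 and the netrin receptor Unc5a passed the call with 10 UMIs each, where the young library had 7 and 8.

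Neuroblast-like cells had 9 raised genes (19.1%, against 5.94% of all genes), 3 ligands and 6 receptors. Epha4, an Eph receptor that binds ephrins of both classes, stood at 4.94 in the old and 5.02 (4.38 to 5.72) in the young library, 29.9-fold higher (23.5 to 38.2). It was found in 45 of 58 young cells, against 6.61% of other brain-class cells. Sema3c was at 3.03 in the old and 2.94 (2.45 to 3.48) in the young library, 7.26-fold higher (5.82 to 9.01), although the endothelial-like cells in the other pool held more of it. Plxna2 was 14.7-fold higher (10.3 to 21.01), at 1.29 in the old and 1.57 in the young library.

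The other calls of the neuroblast-like class had fewer UMIs. Robo2, a Slit receptor, was 28.4-fold higher (17.7 to 46.8) with 57 UMIs in 18 young cells. Plxna3 was 9.14-fold higher (4.82 to 17.0) and Sema6c, a membrane semaphorin, 10.9-fold (5.40 to 21.7). Epha7, an ephrin-A receptor, had 12 UMIs in 5 cells, 7 of them in 1 cell, and a fold of 18.0 (6.94 to 48.3). Efna5, an ephrin-A, had 10 UMIs in 5 cells, 5 of them in 1 cell, and a fold of 12.2 (4.66 to 31.8). The calls of Epha7 and Efna5 rest on that 1 cell each, since the rest is below 10 UMIs. Ephb2, an ephrin-B receptor of synapses, had 10 UMIs in 10 cells and a fold of 13.5 (5.03 to 36.1). In the old library Epha7 and Efna5 missed the call, Epha7 with 19 UMIs over the brain-class cells and Efna5 with 4 UMIs in the class.

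The neuroblast-like class was mixed. Re-clustering split its cells into 6 sub-clusters, and 1 of them, of 9 old and 9 young cells, carried 5 of 5 Cajal-Retzius markers. Cajal-Retzius cells are reelin-secreting neurons of the hippocampal fissure and not neuroblasts. They held 25 of the 57 young Robo2 UMIs, a level of 5.54 per 10,000, and 10 of the 12 Sema6a UMIs. They held only 2 of 224 Epha4 UMIs, 3 of 131 Sema3c UMIs and 1 of 70 Plxna2 UMIs. Another 25 Robo2 UMIs lay in a sub-cluster of 13 young cells led by Hmgb2 and including Top2a, genes of dividing cells. That sub-cluster had 70 Epha4 UMIs but only 6 Sema3c UMIs, while a sub-cluster of 14 young cells led by Dlx6os1 had 68 and 53. Without the Cajal-Retzius-like cells 43 of the 45 calls were kept. Epha7 and Ephb2 were then below a minimum of UMIs, and Robo2 passed in astrocyte-like cells.

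**Figure D3:**
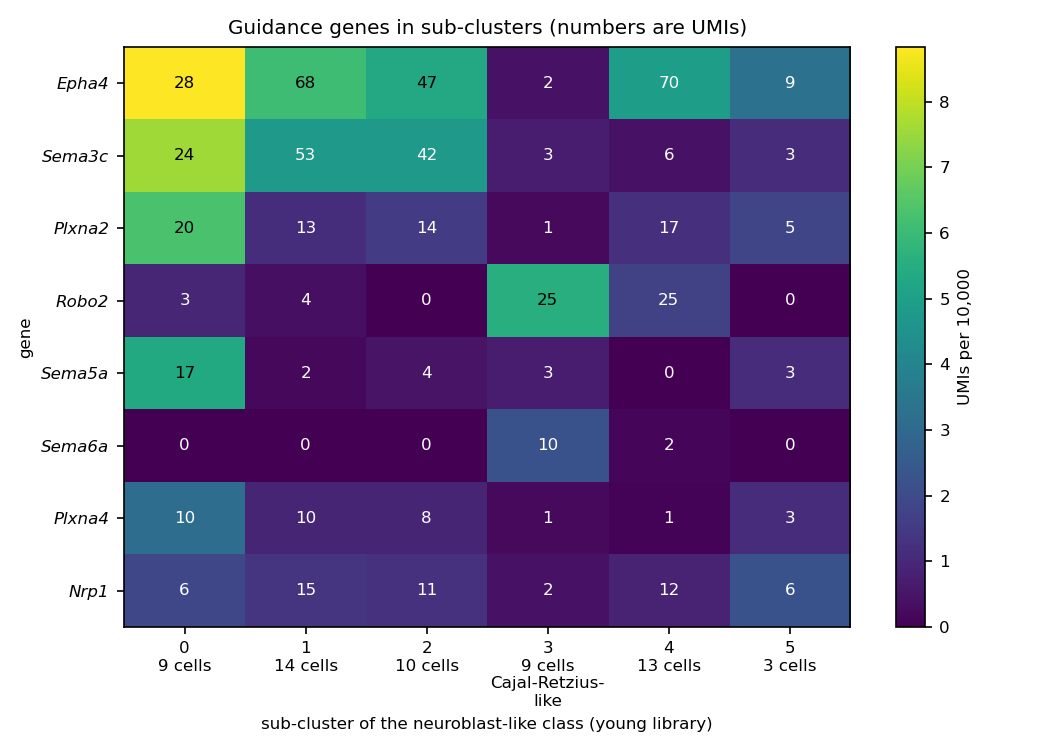
Level of 8 guidance genes, in UMIs per 10,000 (colour), in the 6 sub-clusters of the neuroblast-like class of the young library, with the number of UMIs written in each field. Robo2 and Sema6a are highest in the Cajal-Retzius-like sub-cluster, with 25 and 10 UMIs, and Epha4 and Sema3c in sub-cluster 0. The 8 genes were chosen after their values were seen.

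Raised in a class did not mean restricted to it. When a class was set against the next highest class alone, with a fold of at least 2 required, 21 of the 45 calls were kept. The 7 genes raised in 2 classes linked pairs of classes. Epha5 was raised in oligodendrocyte precursor-like and astrocyte-like cells, and Unc5c in oligodendrocyte precursor-like and mature oligodendrocyte-like cells. Plxna3 was raised in oligodendrocyte precursor-like and neuroblast-like cells. Plxna2 and Sema3c were shared by neuroblast-like and endothelial-like cells, and Ntn1 and Sema5a by oligodendrocyte precursor-like and pericyte-like cells. Where cells were weighted equally rather than by their UMIs, 40 of the calls were kept and 5 others were gained, among them Nrp1 and Sema6a in endothelial-like cells.

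Counted genes raised in no class were 9, and 2 of these were the neuropilins. Nrp1, the co-receptor of class 3 semaphorins and of VEGF, was highest in endothelial-like cells, at 2.35 in the old and 2.44 (2.01 to 2.94) in the young library, a fold of 3.76. It had 0 UMIs in the 82 young mature oligodendrocyte-like cells, which allows a level of up to 0.0411 per 10,000. Among small classes, 10 young perivascular macrophage-like cells had 22 UMIs of Nrp1, a level of 4.80 (3.01 to 7.27). Nrp2, its relative, stayed between 0.0827 and 0.377 over the classes of the old library and between 0.0856 and 0.388 in the young one. Efnb1 (an ephrin-B), Sema4c and Sema4g (class 4 semaphorins) did not exceed 0.426 in any young class. The others were Plxna4, Plxnb2, Sema4d and Ntn4, described above.

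Genes with under 20 UMIs in young brain-class cells were 20, 11 ligands and 9 receptors. They were the ligands Efna3, Efna4, Ntn5, Sema3a, Sema3b, Sema3e, Sema3f, Sema4f, Slit1, Slit2 and Slit3. The receptors were Epha1, Epha3, Epha6, Epha8, Epha10, Plxnc1, Robo3, Unc5a and Unc5d. None of the 3 Slits was counted, while 3 of the 4 Robo receptors were. Epha1 alone had no UMI. It was also the only gene of the 67 with more than 10% of its 3' sequence shared with another gene (17.7% of 31-base words).

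Summed over all genes of a role, the balance of ligands against receptors differed among classes. Young endothelial-like cells had 12.5 ligand UMIs per 10,000 (11.5 to 13.6) and 8.89 receptor UMIs (8.05 to 9.80). Mature oligodendrocyte-like cells had the widest excess of ligands, at 12.4 (11.6 to 13.2) against 5.44 (4.92 to 6.00), so that ligands made up 69.5% of their guidance UMIs (66.9 to 72.0). Pericyte-like cells had 6.25 against 4.11. These 3 classes were the ones with more ligand than receptor RNA beyond counting error.

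Receptors exceeded ligands in 3 other classes. Neuroblast-like cells had 8.78 ligand (7.94 to 9.70) and 13.7 receptor UMIs per 10,000 (12.7 to 14.9), the highest receptor level of any class. Astrocyte-like cells had 5.45 and 8.57. Microglia-like cells had the lowest levels of both, at 2.24 and 3.68. Oligodendrocyte precursor-like cells were even, at 8.83 and 8.77, and ligands were 50.2% of their guidance UMIs (46.1 to 54.3). The old library gave the same order of ligands and receptors in 6 classes, and in oligodendrocyte precursor-like cells 9.07 ligand and 9.26 receptor UMIs with overlapping intervals.

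**Figure D4:**
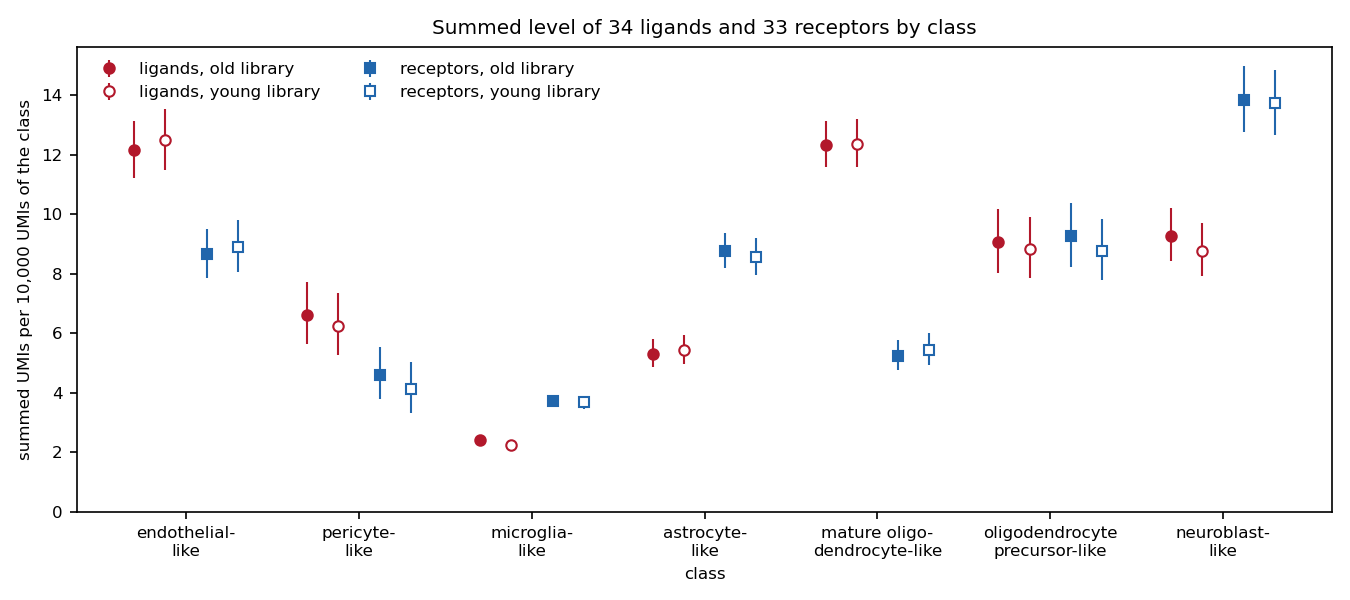
Summed UMIs per 10,000 of the 34 ligands (circles) and 33 receptors (squares) in 7 classes, with the old library filled and left of the young library, open. Bars are 95% exact Poisson intervals for counting error. Ligands lie above receptors in endothelial-like, pericyte-like and mature oligodendrocyte-like cells.

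A few genes set these sums. Efnb3 alone gave 41.9% of the ligand UMIs of young mature oligodendrocyte-like cells, and Sema3c 39.97% of those of endothelial-like cells. Sema4d gave 49.4% of the ligand UMIs of young microglia-like cells, and Plxnb2 40.2% of their receptor UMIs. Plxnb1 gave 40.3% of the receptor UMIs of astrocyte-like cells, and Epha4 36.5% of those of neuroblast-like cells. Oligodendrocyte precursor-like cells had the most even mix of ligands, with Sema5a leading at 17.9%.

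Textbook ligand and receptor pairs were then read from these calls. Of 105 listed pairs, 38 had a ligand raised in one class and a receptor raised in the same or another class. They made 57 combinations of pair, sending class and receiving class, 14 of them within a class. The old library gave 47 combinations, 44 of them shared. Every young combination that was not shared had Efna5, Epha7 or Plxna1, whose calls the old library did not make. The calls of Efna5 and Epha7 rested on 1 cell each. Presence of both RNAs was counted, not contact or binding. The combinations follow from the calls of single genes, and no share over all gene pairs was computed beside them.

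Endothelial-like ligands met neuroblast-like receptors in 6 combinations. These classes had the most raised ligands (6) and the most raised receptors (6), so the number is no sign of matched classes. The combinations were Sema3c and Sema6b with Plxna2, Efna1 with Epha4 and Epha7, and Efnb2 with Epha4 and Ephb2. The 2 with Epha7 and Ephb2 were lost over shared barcodes and without the Cajal-Retzius-like cells. Precursor-like ligands met receptors of 6 classes, with 4 combinations in the neuroblast-like and 4 in their own class. Ntn1, raised in pericyte-like and precursor-like cells, met Unc5b in mature oligodendrocyte-like cells and Unc5c there and in precursor-like cells. Efnb3 of mature oligodendrocyte-like cells met Epha4 of neuroblast-like cells, at levels of 5.18 and 5.02 in the young library. The Slit receptors Robo1 and Robo2 were raised, but no pair with a Slit was found, since no Slit was counted. Microglia-like cells had no raised ligand, and pericyte-like cells no raised receptor.

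**Figure D5:**
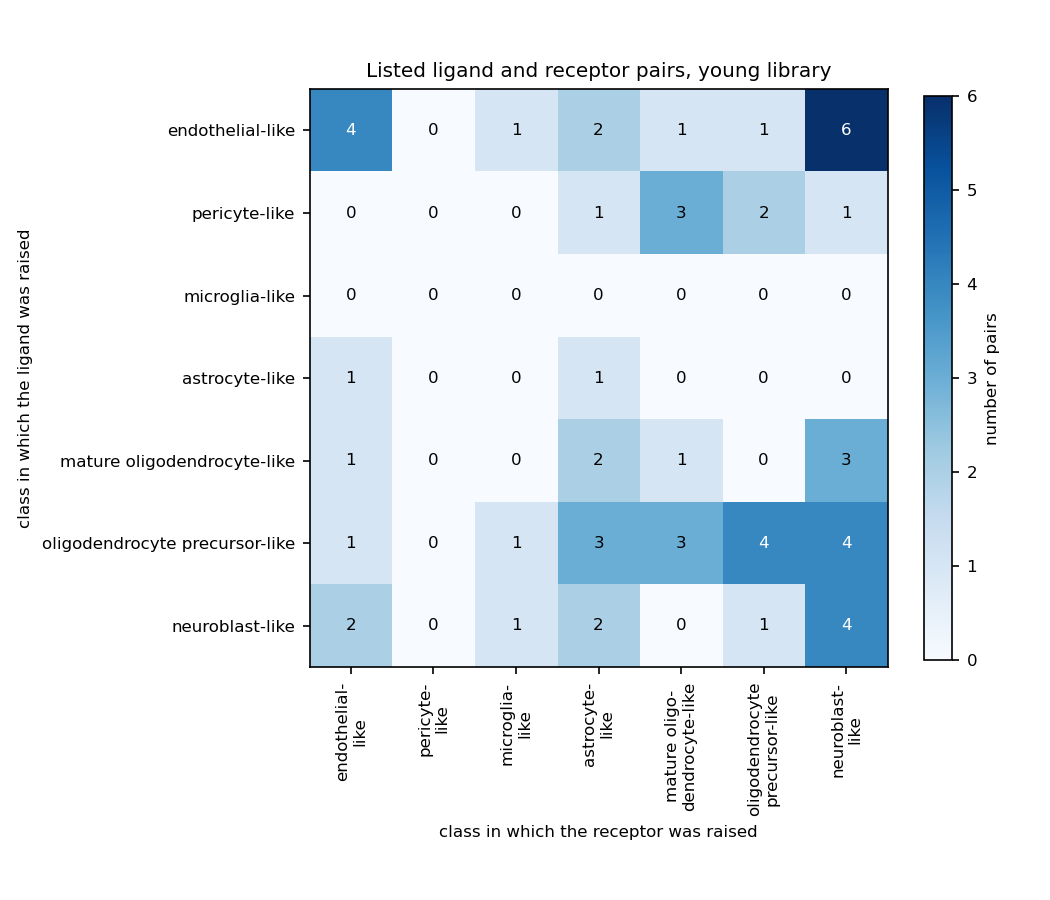
Number of listed ligand and receptor pairs by the class in which the ligand was raised (rows) and the class in which the receptor was raised (columns), young library. The 57 combinations include 6 from endothelial-like ligands to neuroblast-like receptors, and the microglia-like row and the pericyte-like column hold 0.

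Within single cells, UMIs of both sides of some pairs were counted together. Efnb3 and Ephb1 shared 37 of 82 young mature oligodendrocyte-like cells, with 77 cells having the ligand and 39 the receptor. Sema4a and Plxnb1 shared 51 of 304 astrocyte-like cells, with 84 and 159. Sema3c and Plxna2 shared 22 of 58 neuroblast-like cells and 23 of 129 endothelial-like cells. Sema4d and Plxnb2 shared 148 of 387 microglia-like cells, with 219 and 258. An overlap depends on how many cells have each gene, and no association between the genes is read from them.

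Other genes of axon guidance were read with the same call. From a list of 89 co-receptors, other cues and cytoplasmic effectors, 81 were counted and 58 were raised in at least 1 class (71.6%, against 36.6% of all genes). The list was chosen with earlier results of these data known, so its shares describe the listed genes and are not an independent test. Neuroblast-like cells had 21 of the 81 (25.9%, against 5.94% of all genes) and oligodendrocyte precursor-like cells 16 (19.8%, against 6.20%). Astrocyte-like cells had 12 (14.8%, against 8.89%) and mature oligodendrocyte-like cells 10 (12.3%, against 4.95%). The shares lay near the background in endothelial-like cells with 6 (7.41%, against 5.56%), microglia-like cells with 5 (6.17%, against 6.31%) and pericyte-like cells with 4 (4.94%, against 4.10%). All 15 counted cues and 17 of 18 counted co-receptors or other receptors were raised somewhere, against 26 of 48 effectors. Mag, Draxin and Reln belong to the marker lists that named cells, so their calls were fixed in part by the naming.

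Single genes of this list are named here after their values were seen. Dcc, the attractive netrin receptor, had 17 of its 32 young UMIs in neuroblast-like cells, a fold of 15.3. Dscam, a netrin-binding adhesion molecule, had 71 of its 74 young UMIs in oligodendrocyte precursor-like cells. Its fold of 432 is thus measured against very few UMIs, and the folds of this list are given without intervals. Cntn2, an axonal adhesion protein, was 67.8-fold higher in mature oligodendrocyte-like cells. Cxcl12, a chemokine that guides migrating neurons, was 74.9-fold higher in endothelial-like cells. Among effectors, the collapsin response mediators Crmp1 and Dpysl5 were 153-fold and 79.1-fold higher in neuroblast-like cells, and Ngef, an effector of EphA receptors, 79.1-fold in astrocyte-like cells. The effectors that were raised in no class included Rac1, Rhoa and Cfl1. Rac1 differed by 1.33-fold, Rhoa by 1.57-fold and Cfl1 by 1.59-fold between the highest class and the rest.

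For the 6 guidance genes with the most UMIs, the genes closest in pattern over the 7 classes were found by Pearson's r of log2 level, as a description over classes that share their libraries. Plxnb1 was closest to Ttc14, Suclg1 and Ndrg2 (r of 0.997, 0.990 and 0.987), and Efnb3 to Tubb4a, Slain1 and Zfp536 (0.986, 0.984 and 0.981). Nrp1 was closest to Msl1, Coq5 and Rapgef6 (0.970, 0.921 and 0.915), and Sema6d to Daam1, Dctn4 and Arfip2 (0.965, 0.957 and 0.953). Plxnb2 was closest to Slc25a5, Asph and Wdr26 (0.953, 0.950 and 0.941), and Sema4d to Hebp1, Mast3 and Pip4k2a (0.949, 0.925 and 0.920).

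Between the libraries, the guidance genes differed little over the 1113 shared barcodes. Of 53 genes with at least 20 UMIs in both libraries together, 0 were 2-fold apart, against 0.494% of 13552 genes. The ratio of old over young level ran from 0.821 for Sema4a to 1.25 for Sema4f, with a median of 1.01, against 0.993 for all genes. Because these are the same barcodes in both tables, the ratios describe how alike the tables are and not the effect of age.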

How the data were processed

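Values were deposited by the authors as natural log values. Undoing the log gave 10000 per cell in every cell, so that a value was ln(1 + UMIs per 10,000), a unit no label states. The submitters' processing notes name Cell Ranger 5.0.0 and mm10. Filters on cells and the gene annotation behind the table were not stated in the sources. Each cell's smallest linear value was taken as 1 UMI. With it, 100% of values were whole numbers within 0.01, and sums used these recovered UMIs.

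Both libraries were clustered together with scanpy 1.11.5 (2000 variable genes, 30 principal components, 15 neighbours, Leiden resolution 1) in Python 3.11.15, with the 67 guidance genes left out. A class name needed 3 markers in 25% of a cluster's cells at 4 times the level of other cells. Clusters with a median mitochondrial share below 1% in both libraries, and 1 cluster of 43 old and 44 young cells led by blood and choroid plexus genes, were not named. Scrublet called 23 old cells (1.61%) and 37 young cells (1.50%) doublets, which were kept.

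Levels have exact Poisson intervals, shares exact Clopper-Pearson intervals and folds exact conditional binomial intervals. A count of 0 allows 3 counts. Values are given for every gene raised in a class, for counted genes raised in none, and names only for genes under 20 UMIs. The members and lists, pathway genes and pairs included, were chosen with earlier results of these data known. Alternatives were the old library, shared barcodes, doublets left out, guidance genes kept in the clustering, resolutions 0.5 and 2, means over cells, thinning to 1000 UMIs, other minimums of UMIs, a fold of 2, a pseudocount of 0.1, and comparison with the next class. Leaving out the Cajal-Retzius-like sub-cluster or the unnamed cluster was added after the data were seen. All 67 genes matched GENCODE M21 on GRCm38, from which coordinates come, and promoter sequences are RefSeq's on GRCm38.p6.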

Additional observations from a re-analysis of the deposited data

Results flagged for a closer look

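Guidance ligands with too few UMIs to count in brain classes were found in the low-mitochondrial cells, which no comparison above uses and which were flagged for that reason. Slit2, a secreted Slit, had 497 UMIs in 310 of the 1315 low-mitochondrial cells of the young library, against 13 UMIs in its 1148 brain-class cells. Efna3, an ephrin-A, had 361 UMIs in 293 of those cells, against 5. Sema3a, the best known axon repellent of class 3, had 322 UMIs in 259 of those cells, against 8. The pools differ in size, with 9761140 UMIs in young low-mitochondrial cells and 6456419 in young brain-class cells.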

How the results depend on the processing

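No single value changed sign, but in precursor-like cells ligands, above receptors in the young library by less than counting error, were below them in the old library (9.07 against 9.26), without doublets (8.85 against 9.03), over means of cells (9.72 against 10.1) and after thinning (9.32 against 11.6), and equal over shared barcodes (9.27 each). The order of the other 6 classes held under every alternative run. The count per class had no fixed order: precursor-like cells had 11 calls and endothelial-like 10 in the old library, and 14 and 10 with at least 5 UMIs. The 45 calls stayed within 1.5 times under the old library, shared barcodes, removal of doublets, other clusterings, means over cells, a minimum of 5 UMIs, a fold of 2 and the removal of the Cajal-Retzius-like or the unnamed cells, with 40 to 67 calls. The fewest calls were left by thinning. It changes the depth, the weight of each cell and the cells held all at once, and a cause was not tested. Thinning each cell to 1000 UMIs, which left out 50 old and 58 young brain-class cells, left 24 counted genes and 19 calls, with 5 each in endothelial-like and astrocyte-like cells, 4 in mature oligodendrocyte-like cells, 3 in neuroblast-like cells, 1 each in pericyte-like and precursor-like cells and 0 in microglia-like cells. It gave 9 pair combinations, where there were 57, and 33 calls of other listed genes, where there were 74. Thinned ligand levels were 2.62 in microglia-like, 6.24 in astrocyte-like and 13.75 in mature oligodendrocyte-like cells. Thinned receptor levels were 9.81 in astrocyte-like, 5.15 in pericyte-like, 11.6 in precursor-like, 16.5 in neuroblast-like and 6.50 in mature oligodendrocyte-like cells.

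Means over cells gave ligand levels of 2.43 in microglia-like, 6.78 in astrocyte-like, 11.1 in neuroblast-like and 13.5 in mature oligodendrocyte-like cells, and receptor levels of 4.03, 10.9 and 17.4 in microglia-like, astrocyte-like and neuroblast-like cells and 10.1 in precursor-like cells. With at least 5 UMIs, precursor-like cells had 14 calls. With no minimum there were 73 calls (5 pericyte-like, 17 precursor-like, 23 neuroblast-like), 110 pair combinations and 2 genes 2-fold apart between libraries, where no gene was before. A fold of 2 gave 3 calls in microglia-like, 13 in astrocyte-like and 4 in pericyte-like cells, and 124 pair combinations. A pseudocount of 0.1 gave 29 calls (0 microglia-like, 3 astrocyte-like, 4 neuroblast-like) and 21 pair combinations. Against the next class there were 22 calls (0 in microglia-like and pericyte-like, 3 each in astrocyte-like, mature oligodendrocyte-like and neuroblast-like, 5 in precursor-like cells), 10 pair combinations and 36 calls of other listed genes. Fewer counts or a stricter rule are part of these settings, and no other cause was tested. No paired analysis was possible because each age has 1 library and the result comes from no test.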

Other observations

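Efnb1, Efna5 and Efna3 had higher levels in low-mitochondrial cells than in any of the 7 brain classes compared. Efnb1 stood at 1.48 UMIs per 10,000 (1.16 to 1.87) in the 289 low-mitochondrial cells of the old library and at 1.46 (1.39 to 1.54) in the 1315 of the young library, against 0.211 over all young brain-class cells. Efna5 stood at 1.56 in the old and 1.43 in the young low-mitochondrial cells, against 0.0325 in young brain-class cells. Slit2 was at 0.479 and 0.509 in old and young low-mitochondrial cells. Efna3 was at 0.396 in the old and 0.370 in the young ones. A low-mitochondrial cell held a median of 1576 UMIs in the old library and 7235 in the young one. Levels and not shares of cells are therefore given in this paragraph.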
